A study of Mus musculus with 6 samples.

Results

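Transcripts of 10 transcription factors of the pluripotency network were followed in mouse embryos at the 4-cell stage. The genes were taken by symbol as a named set of pluripotency transcription factors, namely Nanog, Klf2, Klf4, Klf5, Klf17, Esrrb, Tfcp2l1, Sall4, Zfp42 and Tbx3. All 10 were found among the 29431 genes of the authors' deposited table, and the rule that takes them uses names and no measured value. Libraries were made from 2 groups of wild-type embryos by their labels, 3 of untreated controls and 3 of embryos treated with AXKO-0046, which the labels give as inhibition of LDHB. This subunit of lactate dehydrogenase is best known for turning lactate into pyruvate. The design text names 6 embryos for each group, without saying whether they were divided among its 3 libraries or went into each one. The labels state no strain, dose or exposure time. Separate litters or cultures are not stated for the replicates, and the p-values therefore reflect how far these libraries differ from each other, possibly for technical reasons alone.

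Pluripotency is the capacity of cells of the early embryo to form every tissue of the body. In mouse embryonic stem cells it is held by transcription factors that bind many of the same enhancers and each other's genes, downstream of LIF, STAT3 and Wnt signals. Nanog, Esrrb, Tfcp2l1, Tbx3 and the Krüppel-like factors Klf2, Klf4 and Klf5 belong to the naive form of that state, and several of them become prominent only in the morula and blastocyst. Klf17 is known in the mouse for expression in the cleaving embryo, Sall4 is a zinc finger factor needed for the inner cell mass, and Zfp42, also called Rex1, is a classical marker of embryonic stem cells.

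The 4 Krüppel-like members share 3 C2H2 zinc fingers at the end of the protein, the part that contacts DNA. The coding sequence of the last finger is shown because it shows how far Klf17, the most abundant member, stands from the others. Sequences are from GENCODE M21 transcripts on GRCm38, read 5′ to 3′, and capitals mark the codons of the paired cysteines and histidines that hold the zinc ion.
Klf17: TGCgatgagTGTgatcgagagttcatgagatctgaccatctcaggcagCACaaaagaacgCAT
Klf2: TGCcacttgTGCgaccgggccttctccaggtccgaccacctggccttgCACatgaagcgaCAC
Klf4: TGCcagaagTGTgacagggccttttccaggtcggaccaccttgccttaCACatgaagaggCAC
Klf5: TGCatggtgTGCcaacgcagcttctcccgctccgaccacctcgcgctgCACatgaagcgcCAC
Klf2 and Klf4 were identical at 52 of these 63 bases, Klf2 and Klf5 at 48 and Klf4 and Klf5 at 42, while Klf17 shared 34 with Klf2, 35 with Klf4 and 34 with Klf5. Over all 3 fingers, 243 bases, identity was 78.2% for Klf2 and Klf4, 70.4% for Klf2 and Klf5, 68.3% for Klf4 and Klf5, and between 56.4% and 62.1% for Klf17 against the others. The longest run shared exactly by any pair of these 4 transcripts was 15 bases.

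Expression was given as FPKM, a fragment count scaled by transcript length and library size, which allows levels of different genes to be compared per length. Before the members are described, other differences between the libraries are given, some of which follow the treatment groups and cannot be told apart from treatment. Genes of the 2-cell stage were high in inhibitor replicate 2. Their summed level over the 25 listed genes found was 1922 FPKM there, against 91.5 to 305 FPKM in the other 5 libraries. Of the 23 tested, 21 had fold changes above 0, beside 57.1% of all genes tested. Some, such as Zscan4b and Usp17la, reached the mean of 1 FPKM required for testing only through that library. For those a fold change above 0 was close to fixed in advance. Zscan4f reached 363 FPKM in that library, against 2.53 FPKM or less in the others, and Usp17lb 509 FPKM, against 180.3 or less, with Tdpoz3 and Usp17lc, those with the smallest p, at 77.1 and 19.4 FPKM. That library had a median Pearson correlation with the others of 0.888 across genes, which are not independent replicates, while the rest lay between 0.946 and 0.965. Klf17 and Klf2 had their highest values in this library. All inhibitor libraries had a lower total than all controls, at 490597, 498309 and 457016 FPKM in replicates 1 to 3 against 511534 to 524538 FPKM. Inhibitor replicate 3, the lowest, also had the fewest genes above 0, 20094 against 20997 or more. It had the lowest library weight in limma, 0.54, next to 0.60 for replicate 2 and at least 1.06 elsewhere. Among the members it held the highest value of Sall4 and the lowest of Klf17, Klf5 and Nanog. Summed oocyte genes, 18 found, ran from 106.8 to 145 FPKM in controls and from 71.6 to 96.9 FPKM under the inhibitor, without overlap. Of the 10 tested, 7 had fold changes below 0, beside 4162 of all 9691 genes tested. All inhibitor libraries lay below all controls for 2 of them, beside 6.26% of all genes tested. Npm2, a maternal histone chaperone, averaged 33.3 and 20.7 FPKM, Zp3, a zona pellucida protein, 28.4 and 20.8 FPKM, and Oosp1 15.3 and 5.37 FPKM. None of these passed (limma adjusted p = 0.426, 0.628 and 0.378). The part of these differences in the values of the members was not tested.

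The 10 genes fell into 4 tiers of level. Klf17 stood alone at a mean of 164 FPKM over the 6 libraries, rank 455 of all 29431 genes. Sall4 at 31.6 FPKM and Zfp42 at 27.4 FPKM followed. Klf2 at 11.1 FPKM, Klf5 at 8.99, Klf4 at 5.82 and Nanog at 4.04 formed the next tier. Tbx3 at 0.598 FPKM, Esrrb at 0.565 and Tfcp2l1 at 0.417 lay below the mean of 1 FPKM required for testing, so 7 of the 10 were tested.

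**Figure D1:**
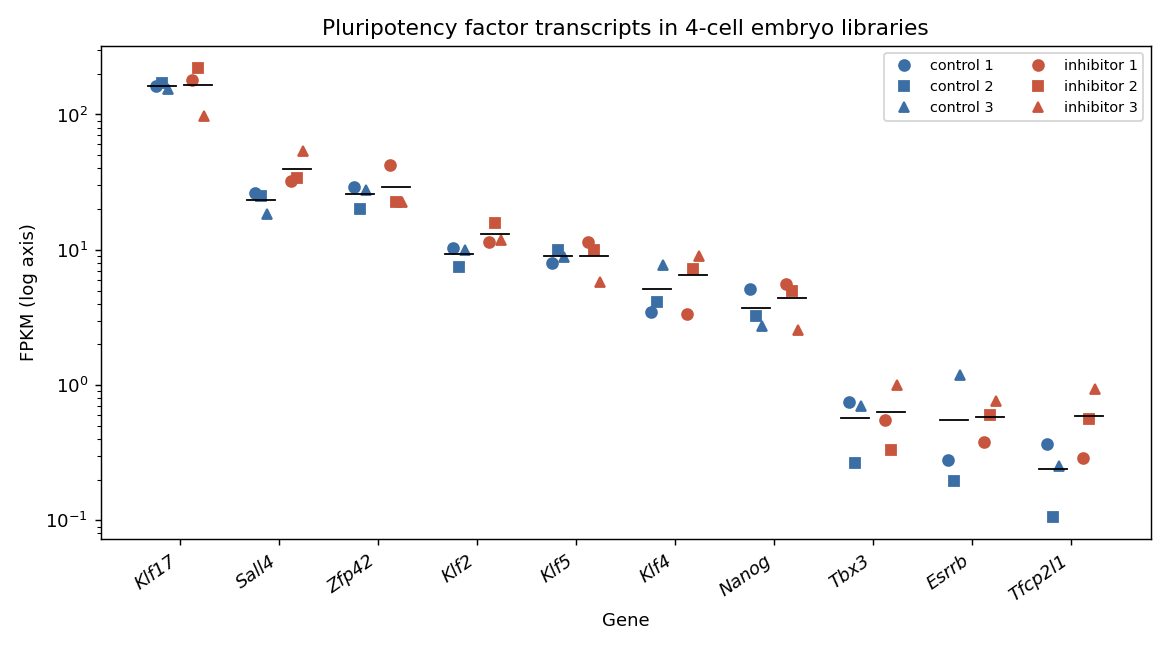
FPKM of the 10 genes (log axis) in each of the 3 control (blue) and 3 inhibitor (red) libraries, with black lines at the group means and genes ordered by their mean over the 6 libraries. Klf17 lies at 98.2 FPKM or more in every library, and Tbx3, Esrrb and Tfcp2l1 at 1.18 FPKM or less.

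The order of the tiers was the same in each of the 6 libraries, and that within them was not. Klf17 exceeded Sall4 in 6 of 6 libraries, by 5.21 times in the means, and Zfp42 exceeded Klf2 in 6 of 6, by 2.47 times. Nanog exceeded Tbx3 in 6 of 6 libraries, by 6.76 times. Within tiers the ranges of all neighbours overlapped. Sall4 was above Zfp42 in 3 of 6 libraries, Klf5 above Klf4 in 5, and Klf2 above Klf5, Klf4 above Nanog, Tbx3 above Esrrb and Esrrb above Tfcp2l1 in 4 each.

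Klf17 (ENSMUSG00000048626, chromosome 4, 117757836 to 117765648, minus strand, GRCm38) stood at 162, 171 and 154 FPKM in control replicates 1 to 3 and at 181, 219 and 98.2 FPKM in inhibitor replicates 1 to 3. The controls lay close together, and the inhibitor libraries fell on both sides of them, with replicate 2 the highest and replicate 3 the lowest of the 6. The group means were 162 FPKM ± 8.16 and 166 FPKM ± 61.9 (SD, n = 3 each). On the log2(FPKM + 1) scale, which understates changes of low genes, the difference of inhibitor minus control was -0.04 (SE 0.28, 95% interval -0.68 to 0.59, limma adjusted p = 0.975). Its sign rested on inhibitor replicate 3, since without that library it was 0.30 (limma adjusted p = 0.508), and without inhibitor replicate 2 it was -0.28. In libraries of whole embryos, fewer cells of a type and less RNA per cell cannot be told apart.

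Klf17 took most of the family's transcripts. The table held 16 Klf genes, and 10 of them averaged 1 FPKM or more. Klf2, the next most abundant, averaged 11.1 FPKM, and Klf17 was 14.8 times higher. Its share of summed Klf FPKM was 76.9%, 78.1% and 73.2% in the controls and 75.9%, 75.2% and 63.2% under the inhibitor. The lowest share was that of inhibitor replicate 3, where the other Klf genes together stood at 57.1 FPKM, within the range of 48.0 to 72.2 FPKM of the other libraries. Among Klf genes that are not members, Klf13 and Klf11 were the most abundant, at 8.11 and 7.50 FPKM over all libraries.

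**Figure D2:**
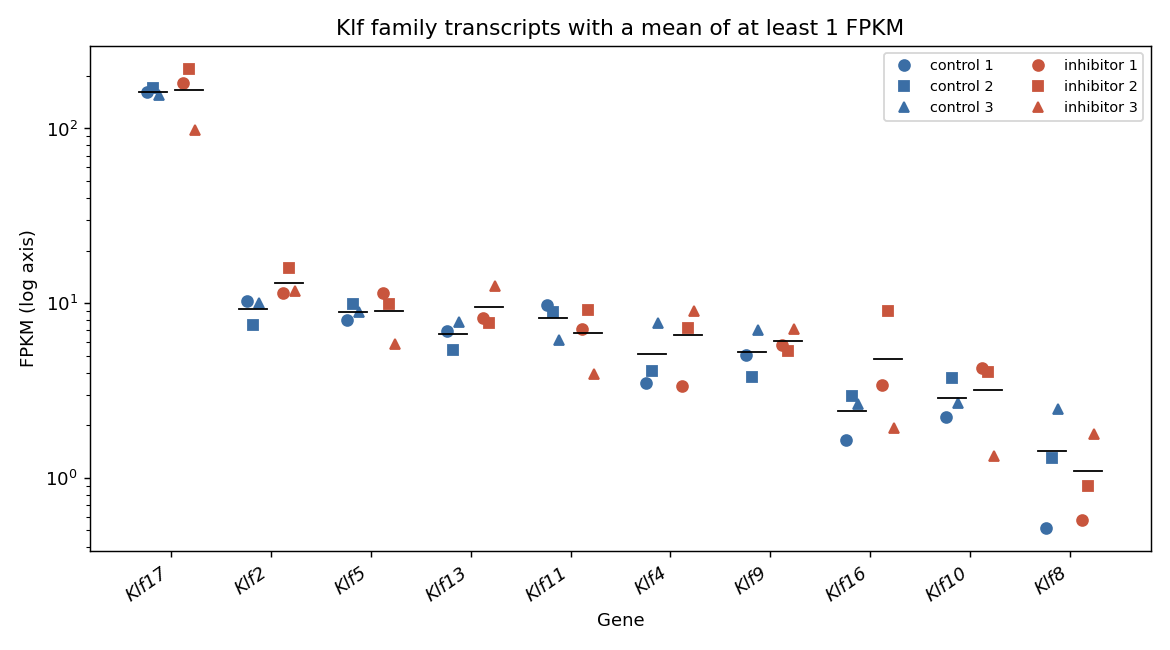
FPKM (log axis) of the 10 Klf family genes that average 1 FPKM or more, in each control (blue) and inhibitor (red) library, with black lines at the group means. Klf17 stands 14.8 times above the next gene, Klf2, and the values of the genes from Klf2 to Klf9 interleave.

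Klf2 (ENSMUSG00000055148, chromosome 8, 72319033 to 72321656, plus strand), which in mouse stem cells responds to inhibition of ERK signalling, was at 10.2, 7.49 and 10.03 FPKM in control replicates 1 to 3 and at 11.4, 15.9 and 11.7 FPKM in inhibitor replicates 1 to 3. All inhibitor libraries lay above all controls, though inhibitor replicate 1 exceeded the highest control by little. The means were 9.25 FPKM ± 1.53 and 13.0 FPKM ± 2.50 (SD, n = 3 each), a difference of 0.44 on the log2(FPKM + 1) scale (SE 0.23, 95% interval -0.09 to 0.98), which did not pass (limma adjusted p = 0.629). The highest value was that of inhibitor replicate 2, and without it the difference was 0.30 (limma adjusted p = 0.761).

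Klf5 (ENSMUSG00000005148, chromosome 14, 99298691 to 99315036, plus strand), needed in the mouse blastocyst for both the inner cell mass and the trophectoderm, was at 7.96, 9.90 and 8.90 FPKM in the controls and at 11.5, 9.88 and 5.81 FPKM under the inhibitor. As with Klf17, the highest and the lowest value both came from inhibitor libraries and the groups overlapped. The difference was -0.02 (SE 0.27, limma adjusted p = 0.988), and 0.24 without inhibitor replicate 3.

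Klf4 (ENSMUSG00000003032, chromosome 4, 55527143 to 55532466, minus strand), one of the reprogramming factors, was at 3.48, 4.12 and 7.67 FPKM in the controls and at 3.37, 7.22 and 9.05 FPKM under the inhibitor. Each group held low and high libraries, and the lowest of all was inhibitor replicate 1. The means were 5.09 FPKM ± 2.26 and 6.55 FPKM ± 2.90 (SD, n = 3 each), a difference of 0.29 (SE 0.38, 95% interval -0.58 to 1.15, limma adjusted p = 0.834). It was 0.038 without inhibitor replicate 3 and 0.64 without inhibitor replicate 1.

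Sall4 (ENSMUSG00000027547, chromosome 2, 168748332 to 168767943, minus strand), whose product binds AT-rich DNA and recruits the NuRD repressor complex, showed the largest difference among the 7 tested members. It was at 26.4, 25.1 and 18.4 FPKM in control replicates 1 to 3 and at 32.1, 33.9 and 53.5 FPKM in inhibitor replicates 1 to 3. The groups did not overlap, and the highest value was that of inhibitor replicate 3. Means were 23.3 FPKM ± 4.30 and 39.8 FPKM ± 11.8 (SD, n = 3 each), a ratio of 1.71. On the log2(FPKM + 1) scale the difference was 0.73 (SE 0.25, 95% interval 0.15 to 1.302) with an unadjusted limma p of 0.0187, and it did not pass over all genes tested (limma adjusted p = 0.493). In the authors' deposited table Sall4 also had the lowest q-value of the 10 genes, 0.434, and 0 of the 10 were marked as significant. Of all 29431 genes listed there, 129 were marked as significantly higher under the inhibitor and 104 as lower. With so small a part of all genes marked, 0 of 10 does not set the members apart. The difference of Sall4 was 0.82 without inhibitor replicate 2, the library with high 2-cell genes. It was 0.50 without inhibitor replicate 3 and 0.57 without control replicate 3. Under each of the 3 other scalings, the alternatives that could alter the order of libraries, all inhibitor libraries lay above all controls for Sall4 and for Klf2.

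Across the set, 2 of the 10 genes had all inhibitor libraries above all controls, Sall4 and Klf2, both among the 7 tested. With all inhibitor libraries below all controls there were 0. Among all 9691 genes tested the first order held for 9.13% (885 genes) and the second for 6.26% (607 genes). Median-ratio scaling turned the balance, to 621 above and 825 below, as did quantile normalization, to 572 and 877. The balance stayed with library totals taken without mitochondrial genes, at 935 above and 572 below. In limma 0 of the 7 tested members passed at an FDR of 0.05, as did 0% of all genes tested. At an unadjusted p under 0.05, Sall4 was the 1 member, higher under the inhibitor, beside 4.72% of all genes higher (457 genes) and 3.8% lower (368 genes). That split turned likewise, median-ratio scaling giving 299 genes higher and 512 lower, and quantile normalization 268 and 543. Without mitochondrial genes in the library total the split stayed, at 465 higher and 346 lower. Counts over the 7 genes that passed the level filter describe those genes and not all 10.

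**Figure D3:**
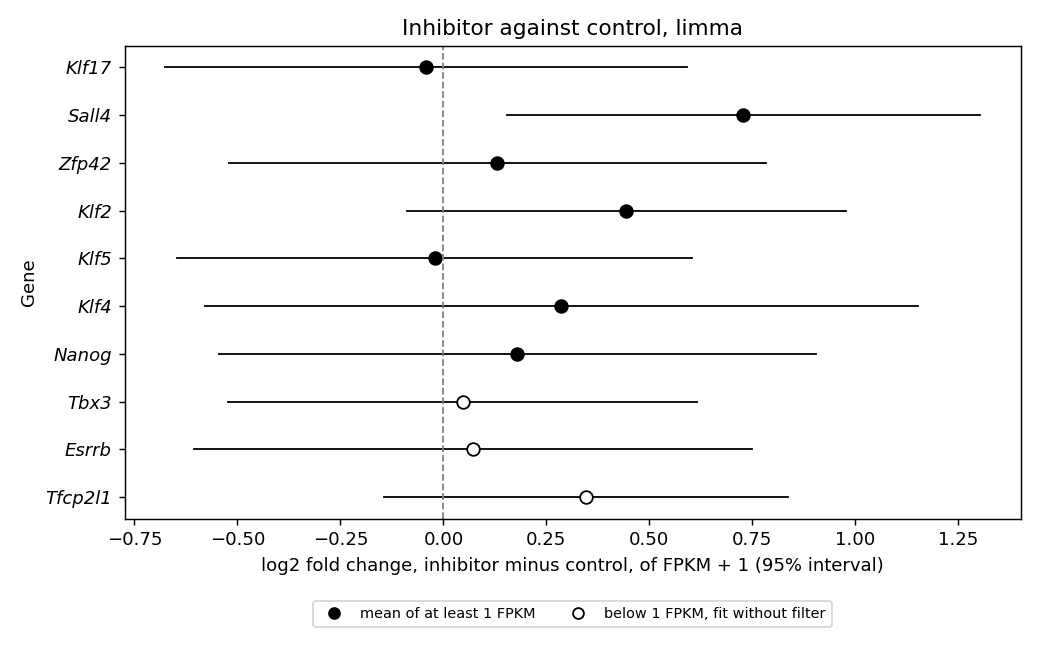
Difference between inhibitor and control on the log2(FPKM + 1) scale for each of the 10 genes, with 95% intervals from limma. Filled points are the 7 genes tested and open points the 3 genes below 1 FPKM, from a fit without the level filter, and the interval of Sall4, 0.15 to 1.302, is the one that lies above 0, before adjustment over all genes.

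Zfp42 (ENSMUSG00000051176, chromosome 8, 43295063 to 43306980, minus strand), the stem cell marker Rex1, was at 29.2, 20.1 and 27.8 FPKM in the controls and at 42.5, 22.5 and 22.5 FPKM under the inhibitor. A single library, inhibitor replicate 1, stood above the rest. The difference was 0.13 (SE 0.29, 95% interval -0.52 to 0.78, limma adjusted p = 0.910), and -0.17 without that library.

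Nanog (ENSMUSG00000012396, chromosome 6, 122707489 to 122714633, plus strand), the homeodomain factor that marks the epiblast, was at 5.14, 3.25 and 2.71 FPKM in the controls and at 5.59, 4.97 and 2.57 FPKM under the inhibitor. The groups covered almost the same range. Means were 3.70 FPKM ± 1.27 and 4.38 FPKM ± 1.60 (SD, n = 3 each), a difference of 0.18 (SE 0.32, 95% interval -0.55 to 0.90, limma adjusted p = 0.887). It was 0.45 without inhibitor replicate 3 and 0.0075 without inhibitor replicate 1.

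The 3 genes of the lowest tier were listed above 0 in every library. Tfcp2l1 (ENSMUSG00000026380, chromosome 1, 118627945 to 118685168, plus strand), a target of LIF and STAT3 signalling in mouse stem cells, was at 0.365, 0.106 and 0.253 FPKM in the controls and at 0.288, 0.563 and 0.929 FPKM under the inhibitor. Inhibitor replicate 1 lay inside the range of the controls, and the other inhibitor libraries above it. The means were 0.242 FPKM ± 0.130 and 0.593 FPKM ± 0.322 (SD, n = 3 each), a ratio of 2.46 between low values. On the log2(FPKM + 1) scale, which understates changes at this level, the difference fitted without the level filter was 0.35 (SE 0.20, 95% interval -0.14 to 0.84, limma adjusted p = 0.748).

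Esrrb (ENSMUSG00000021255, chromosome 12, 86361117 to 86521628, plus strand), an orphan nuclear receptor, was at 0.281, 0.195 and 1.18 FPKM in the controls and at 0.379, 0.599 and 0.757 FPKM under the inhibitor. It was the 1 member whose highest value came from a control library. Tbx3 (ENSMUSG00000018604, chromosome 5, 119670669 to 119684724, plus strand), a T-box factor, was at 0.744, 0.267 and 0.695 FPKM in the controls and at 0.551, 0.332 and 0.998 FPKM under the inhibitor, with the groups overlapping. Without the level filter the differences were 0.07 for Esrrb (SE 0.28, limma adjusted p = 0.944) and 0.05 for Tbx3 (SE 0.23, limma adjusted p = 0.960).

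The members did not move as a block across libraries. Inhibitor replicate 3 held the highest value of 4 genes, Sall4, Klf4, Tbx3 and Tfcp2l1, and the lowest of 3, Klf17, Klf5 and Nanog. Among all genes tested 20.2% had their highest value in that library and 20.6% their lowest. Its deviation from the control mean ran from -0.72 for Klf17 to 1.18 for Sall4 on the log2(FPKM + 1) scale. Inhibitor replicate 1 held the highest value of Zfp42, Klf5 and Nanog, and inhibitor replicate 2 that of Klf17 and Klf2, where all genes tested gave 16.5% and 26.5%. Control replicate 2 held the lowest value of 5 genes, Zfp42, Klf2, Tbx3, Esrrb and Tfcp2l1, beside 12.1% of all genes tested. The standard deviation of log2(FPKM + 1) was larger among the inhibitor libraries than among the controls in 9 of the 10 genes, Esrrb being the exception, and in 65.1% of all genes tested. For Klf17 it was 0.072 in controls and 0.60 under the inhibitor. The shares of all genes tested leave out genes below the level filter, while the member counts here include Tbx3, Esrrb and Tfcp2l1.

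**Figure D4:**
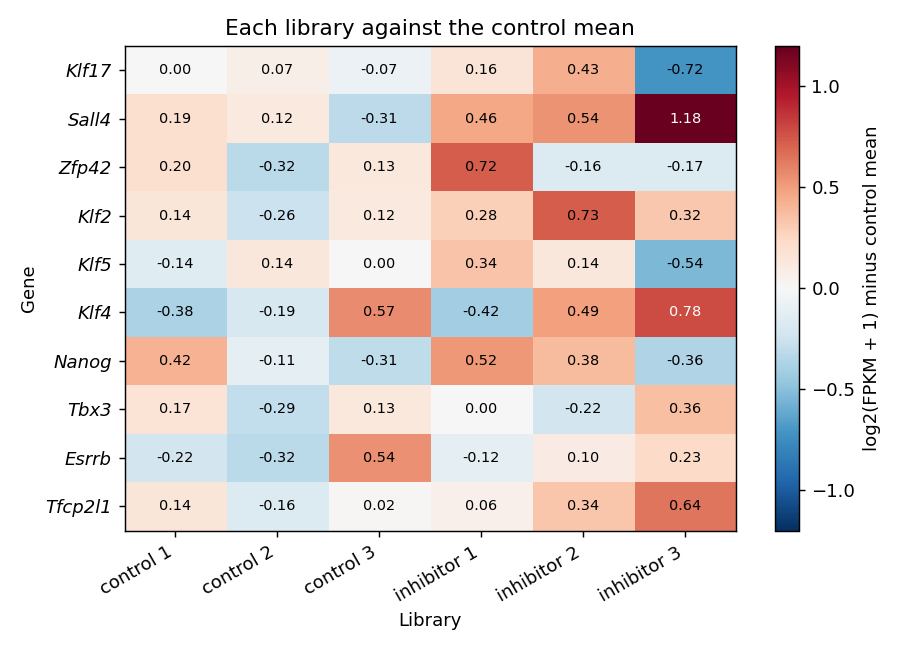
Difference of each library from the control mean on the log2(FPKM + 1) scale, printed in each cell, for the 10 genes in order of level (rows) and the 6 libraries (columns), red above and blue below the control mean. Inhibitor replicate 3 holds both the highest value, 1.18 for Sall4, and the lowest, -0.72 for Klf17.

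Markers of later lineages and of other cells were set against the label of the 4-cell stage. Of the 7 formative and primed genes found 0 reached a mean of 1 FPKM, with Dnmt3b at 0.846 and Fgf5 at 0.743 FPKM as the highest. Trophectoderm genes summed to between 11.4 and 23.5 FPKM, led by Tead4 (8.0 FPKM) and Id2 (5.33 FPKM), with Krt18 at 1.83 FPKM. Primitive endoderm genes summed to between 8.21 and 13.9 FPKM, led by Foxa1 (6.03 FPKM) and Gata4 (4.20 FPKM). Of the 10 trophectoderm genes found 3 reached a mean of 1 FPKM, and of the 7 primitive endoderm genes 2. Both sums came mostly from the few genes named here. Sperm genes summed to at most 1.28 FPKM, with Prm2 at 0.465 and Prm1 at 0.146 FPKM. Of the 6 granulosa and cumulus genes found Amhr2, at 14.8 FPKM, made nearly all of a sum of 10.3 to 22.9 FPKM, and Star, the next, was at 0.064 FPKM. Of the 12 listed granulosa and cumulus genes the other 6, such as Amh and Has2, were not found in the table by symbol.

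Other genes of the pluripotency network were spread over a far wider range of levels. Of 28 listed, 27 were found and 17 tested, with 6 fold changes above 0 and 11 below (median -0.09, against 0.06 over all genes tested, where 57.1% were above 0), and 0 passed in limma. Dppa3, a maternal factor that protects the methylation of the maternal genome, averaged 13578 FPKM ± 797 in controls and 14337 FPKM ± 3815 with the inhibitor, and Dppa5a, an RNA-binding protein, 3921 FPKM ± 498 and 3715 FPKM ± 671 (SD, n = 3 each). Zfp281, a zinc finger factor of the exit from the naive state, was at 7.11, 11.97 and 7.97 FPKM in the controls and at 4.89, 5.52 and 4.69 FPKM under the inhibitor. It was the 1 gene of this list whose groups did not overlap, where 6.26% of all genes tested had all inhibitor libraries below all controls. Zfp281 did not pass (difference -0.70, SE 0.25, limma adjusted p = 0.511). Tcl1, a coactivator of Akt, averaged 38.2 FPKM ± 26.7 and 17.7 FPKM ± 3.85 (SD, n = 3 each; limma adjusted p = 0.613). Control replicate 3 alone was at 69.0 FPKM, and without it the control mean was 22.9 FPKM.

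Pou5f1 and Sox2, the core partners of Nanog, were looked up after values were seen. Pou5f1, which encodes OCT4, was at 3.98, 1.15 and 3.82 FPKM in the controls and at 11.3, 6.99 and 2.23 FPKM under the inhibitor. The groups overlapped, and the difference did not pass (limma adjusted p = 0.675). Sox2 was listed at 0 in 5 libraries and at 0.031 FPKM in control replicate 2.

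Paralogs of the members ranged from values near 0 to levels like those of Zfp42. Of the 15 paralogs of Sall4, Tbx3, Esrrb, Tfcp2l1 and Zfp42 found, 5 were tested, with 1 fold change above 0 and 4 below (median -0.19). Yy2, a retroposed relative of Zfp42, was at 28.0, 28.1 and 26.5 FPKM in the controls and at 10.9, 18.8 and 23.4 FPKM under the inhibitor, without overlap (difference -0.67, SE 0.27, limma adjusted p = 0.557). Its parent gene Yy1 averaged 9.68 and 9.29 FPKM. Tfcp2, the relative of Tfcp2l1, averaged 7.03 FPKM ± 0.567 and 5.25 FPKM ± 1.37 (SD, n = 3 each; limma adjusted p = 0.678), while Sall1 and Sall2 stayed at or below 0.152 FPKM. In the other Klf and Sp genes 5 of 9 fold changes were above 0 (median 0.04). Klf13 (difference 0.43, SE 0.26, limma adjusted p = 0.665) and Sp1 (difference -0.43, SE 0.25, limma adjusted p = 0.658) had the smallest p there.

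Of the 32 listed genes of signals upstream of the members, 11 averaged below 1 FPKM and 0 passed in limma. Those below included the ligand Lif at 0.065 FPKM, its receptors Lifr at 0.125 and Il6st at 0.053 FPKM, and Stat3 at 0.607 FPKM. Among tested LIF and STAT3 genes 5 of 7 fold changes were above 0 (median 0.17). Pim3, a STAT3-induced kinase, averaged 3.83 and 7.46 FPKM, Tyk2 3.87 and 2.50 FPKM, and Jak2 5.13 and 3.15 FPKM. The higher control mean of Jak2 came from control replicate 3, at 8.79 FPKM, and was 3.30 FPKM without it. Among Wnt inputs 3 of 5 were above 0 (median 0.13), with Ctnnb1, which encodes beta-catenin, at 8.33 and 10.9 FPKM, Gsk3b at 5.54 and 6.85 FPKM (5.47 without inhibitor replicate 3) and Apc at 2.55 and 1.40 FPKM. Among FGF and ERK inputs 6 of 9 were above 0 (median 0.09), with the adaptor Grb2 at 32.1 and 33.8 FPKM, the kinase Map2k2 at 5.16 and 7.69 FPKM and the receptor Fgfr2 at 0.898 and 1.41 FPKM, in controls and under the inhibitor. Spry2, an inhibitor of ERK signalling, was among the 3 with a difference below 0 (-0.09), although its means were 23.2 and 27.6 FPKM. Inhibitor replicate 3 stood at 56.7 FPKM, and without it the inhibitor mean was 13.0 FPKM, the other inhibitor libraries lying below all controls.

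Near-identical copies limit some of the levels. Klf17 matched the processed pseudogene Gm20690 on chromosome 3, listed under 2 overlapping identifiers, at 99.1% identity over 327 bases and 99.7% over 315 bases of its transcript of 2400 bases. The summed level of Gm20690 was 51.6, 46.2 and 37.2 FPKM in the controls and 35.6, 62.5 and 23.0 FPKM under the inhibitor. Like Klf17, this sum was highest in inhibitor replicate 2 and lowest in inhibitor replicate 3. The identifiers did not vary alike. ENSMUSG00000093730 was highest in control replicate 1 (40.6 FPKM) and lowest in inhibitor replicate 2 (3.89 FPKM), and ENSMUSG00000103007 was highest in inhibitor replicate 2 (58.6 FPKM) and lowest in inhibitor replicate 1 (6.55 FPKM). Zfp42 matched Zfp42-ps1 on chromosome 15 at 98.1% over 266 bases, and that pseudogene was at 7.06, 5.41 and 8.36 FPKM in the controls and at 10.6, 5.50 and 5.35 FPKM under the inhibitor, highest in inhibitor replicate 1 like Zfp42. Nanog matched Nanog-ps1 at 97.6% over 245 bases, and over stretches of at most 190 bases it matched transcripts of 60 other genes. The sources used here do not say how shared reads were assigned, which makes the levels of these 3 genes uncertain. The antisense gene overlapping Sall4, Gm14261, averaged 0.0077 FPKM and that overlapping Tbx3, Tbx3os1, 0.121 FPKM. For Klf2, Klf4, Klf5 and Esrrb 0 matching genes were found.

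RefSeq promoter windows on GRCm38.p6, each with 250 bases before and 50 after the start, were matched for 7 of the 10 genes, all but Klf5, Sall4 and Tbx3. Those of the 2 most abundant members with a window, Klf17 and Zfp42, and of Klf2, whose groups did not overlap, are shown. Capitals mark the CACCC box CCACCC and the GC box GGGCGG, both known as contacts of Krüppel-like and Sp factors, the nuclear receptor half-site AAGGTCA and the octamer ATGCAAAT, searched on both strands.
Klf17, chr4:117765617-117765916, minus strand: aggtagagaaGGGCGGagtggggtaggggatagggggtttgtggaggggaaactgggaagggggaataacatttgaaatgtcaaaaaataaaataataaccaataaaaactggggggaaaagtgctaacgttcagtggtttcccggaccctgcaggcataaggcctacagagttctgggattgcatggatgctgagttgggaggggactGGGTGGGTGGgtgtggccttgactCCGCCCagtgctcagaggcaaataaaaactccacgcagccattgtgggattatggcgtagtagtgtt
Zfp42, chr8:43306960-43307259, minus strand: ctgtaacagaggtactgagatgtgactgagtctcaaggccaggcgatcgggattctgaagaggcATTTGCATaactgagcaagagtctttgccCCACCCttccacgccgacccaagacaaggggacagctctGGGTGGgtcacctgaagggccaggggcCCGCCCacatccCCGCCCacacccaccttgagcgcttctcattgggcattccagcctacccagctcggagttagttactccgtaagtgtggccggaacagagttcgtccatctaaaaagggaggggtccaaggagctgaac
Klf2, chr8:72318812-72319111, plus strand: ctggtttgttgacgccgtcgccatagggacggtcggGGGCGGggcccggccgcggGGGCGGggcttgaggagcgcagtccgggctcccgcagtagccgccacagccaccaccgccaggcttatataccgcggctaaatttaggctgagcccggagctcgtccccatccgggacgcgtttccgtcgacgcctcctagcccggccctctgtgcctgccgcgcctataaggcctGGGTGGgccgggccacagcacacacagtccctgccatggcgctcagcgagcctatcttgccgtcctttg
The Klf17 window held 2 CACCC boxes, which overlap each other, and 2 GC boxes. That of Zfp42 held 2 CACCC boxes, 2 GC boxes and 1 octamer, and that of Klf2 1 CACCC box and 2 GC boxes. Among all 32851 promoter windows 31.5% held a CACCC box, 35.7% a GC box, 4.72% the half-site and 1.74% the octamer. The windows of Klf2 and Klf4 were rich in G and C, at 69.3% and 74.3%, where that of Klf17 was at 50.7% and the median of all windows at 52.7%. These matches describe the sequence and not binding.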

How the data were processed

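RNA was measured in 3 control and 3 inhibitor libraries of 4-cell mouse embryos, as full-length complementary DNA amplified by PCR from an oligo(dT) primer, per the labels' protocols. Tools named for the authors' work, per the submitters' processing notes, were HISAT2 2.2.1, cutadapt 1.9, edgeR, DESeq2 and StringTie 2.1.6, on GRCm38, with no role stated for any. The deposited table holds an FPKM value for every gene in every library. It also gives the authors' fold change (the ratio of group mean FPKM), its log2 and a p-value and q-value per gene. Neither strand nor molecular identifiers are mentioned in the labels. FPKM times transcript length fell on whole multiples of a best unit, within 0.05, for at most 20.5% of low values, and read numbers could not be recovered. Depth is therefore unknown, and counting intervals are not given.

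Groups and replicate numbers came from sample titles. From the deposited FPKM, log2(FPKM + 1) was computed and fitted with limma 3.58.1 in R 4.3.3 (trended, robust), for the 9691 genes averaging 1 FPKM or more across the 6 libraries, with Benjamini-Hochberg adjustment over all of them at 0.05. The read count test foreseen for a count table was not used. Alternatives were another pseudocount (0.1), other filters and scalings, a replicate block, library weights, a plain fit, and fits that each leave out a library. The members and the 13 other lists were chosen with earlier results of these data known. All members are named, with the 2 genes of smallest p and the 2 of highest mean in each other list; Pou5f1, Sox2, Sall1, Sall2, Amh and Has2 and the overlapping and near-identical genes are named outside this rule. Coordinates and transcripts are from GENCODE M21, where 29348 of 29431 identifiers were found. Copies were sought with BLAST 2.17.0 (at least 95% identity over at least 100 bases). Python 3.11.15 and matplotlib 3.10.9 drew the figures. The authors' enrichment tables were not used here.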

Additional observations from a re-analysis of the deposited data

How the results depend on the processing

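Sall4, Klf2, Klf4 and Nanog had a difference above 0 in all alternatives computed (15 for each, 14 for Nanog), and none of the 7 tested genes passed at an FDR of 0.05 in any of them. With one library left out the log2 difference ran from 0.50 to 0.86 for Sall4 (adjusted p from 0.420 to 0.898 over all alternatives) and from 0.30 to 0.53 for Klf2 (0.472 to 0.904). It ran from 0.038 to 0.64 for Klf4 and from 0.0075 to 0.45 for Nanog, so single libraries took these close to 0. It ran from -0.20 to 0.24 for Klf5, from -0.28 to 0.30 for Klf17 and from -0.17 to 0.28 for Zfp42, so these signs rested on single libraries. With library weights Klf5 was at 0.059 and Klf17 at 0.0095, and the cause was not tested. Tbx3, Esrrb and Tfcp2l1 could be fitted only without the level filter.

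Over all genes, 0 passed in each setting that kept the 6 libraries; with one left out the calls ran from 0 to 11 higher and from 0 to 1 lower (11 and 1 without inhibitor replicate 1, 1 and 0 without inhibitor replicate 2), with no member among them. Genes with all inhibitor libraries above all controls, 885, became 1674 with no filter and 485 at a mean of at least 5 FPKM, where more or fewer genes were tested, and 621 under median-ratio scaling and 572 under quantile normalization, and ran from 1325 to 1907 with one library left out. Those below, 607, became 1263 and 331, 825 and 877 in the same settings, and ran from 844 to 1176. With library totals taken without mitochondrial genes, the counts were 935 above and 572 below. Fewer libraries make such an order more frequent by construction. Deviations of same-numbered libraries correlated at 0.14, 0.20 and 0.037 across genes; since the last is below 0.1, the numbers were not taken to pair the libraries. As a weak hint from the data, 5 of the 6 libraries correlated best with their own number, control replicate 3 being the exception (0.055 with inhibitor replicate 1). For inhibitor replicate 3 the margin was small, 0.037 against 0.035 with control replicate 1. The deviations were taken from each group's mean, so these correlations are linked and the matches are not independent. With the replicate block 0 genes passed, and Sall4 had an adjusted p of 0.547. Depth is unknown, so the precision of the lowest genes cannot be given.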
